A study of Mus musculus with 12 samples.

Results

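The transcripts described here belong to 10 genes of dendritic cells, chosen by symbol from the 32416 symbols of the deposited expression table, and all 10 had a row. They fall into 3 roles. The cDC1 genes are Xcr1, Clec9a, Batf3, Irf8 and Wdfy4, the pan-dendritic genes are Zbtb46 and Flt3, and the genes of mature migratory cells are Ccr7, Fscn1 and Ccl22.

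The libraries come from tumours that B16 cells, a mouse melanoma line, formed under the skin of C57BL/6 mice. The B16mhgp100 tumours with Aoah over-expression (B16mhgp100 Aoah, n = 4) and those with the Vector (B16mhgp100 Vector, n = 4) were all treated with anti-PD1, an antibody against a checkpoint receptor of T cells, with a first dose on day 10 after inoculation. The B16F10 tumours with Aoah over-expression (B16F10 Aoah, n = 2) and those with the Vector (B16F10 Vector, n = 2) were all given anti-PD1 together with anti-CTLA4, which binds another such receptor, starting on day 6. Aoah encodes acyloxyacyl hydrolase, an enzyme that removes acyl chains from bacterial lipopolysaccharide. Every tumour received 4 doses of 200 µg of each antibody, 2 per week, and was taken 1 day after the last. All groups carried antibody treatment, so none is untreated, and model, antibodies and first day changed together and cannot be told apart. The over-expression was in the implanted melanoma cells, in hosts whose own genotype is given only as C57BL/6. Nothing states whether each tumour of a group grew in its own mouse, and p-values cover only the spread among these samples, which may be technical.

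Conventional dendritic cells take up tumour antigen, carry it to lymph nodes and present it to T cells. The cDC1 subset is known for presenting engulfed antigen on MHC class I to CD8 T cells. IRF8 and BATF3 are the transcription factors on which the subset depends, XCR1 and CLEC9A are its surface receptors for the chemokine XCL1 and for actin exposed by dead cells, and WDFY4 is needed for its cross-presentation. ZBTB46 is a transcription factor of the conventional dendritic lineage, and FLT3 is the receptor for the growth factor that sustains it. On maturation, dendritic cells gain CCR7, which guides them to lymphatic vessels, fascin (Fscn1), which bundles actin in their processes, and CCL22, a chemokine for CCR4-bearing T cells. Several of these genes have other sources too: Irf8 is expressed by B cells and macrophages and is induced by interferon-gamma, Fscn1 is expressed by many tumour cells, and Ccr7 by naive T cells. In bulk tumour RNA, fewer cells of a type and less RNA per cell cannot be told apart.

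Values are TPM, a relative abundance of transcripts scaled to a fixed library total, which also scale for gene length and so can be set side by side between genes. Between 13775 and 14791 symbols reached 1 TPM in a library. The introduced gene was measured first: Aoah stood at 21.75 and 23.73 TPM in the B16F10 Aoah tumours, against 1.49 and 0.75 TPM in the B16F10 Vector tumours. In B16mhgp100 it stood at 17.92, 22.46, 13.96 and 3.91 TPM in the Aoah tumours, against 7.58, 0.89, 2.43 and 1.57 TPM in the Vector tumours. The library labelled B16mhgp100 Aoah 4 thus lay inside the Vector range. That library also stood apart in other ways, with 3281.32 TPM of Krt10, a keratin of the epidermis, and correlations with the other 11 libraries of 0.82 to 0.852 across genes, where the lowest among those 11 was 0.908. The B16mhgp100 difference of each member is therefore given with and without it where a fit allows. The labelled tissue carried its defining transcripts, with 5 melanocyte markers summing to between 7304 and 25111 TPM per library. The B cell list, 5 genes, summed to between 0.77 and 3.21 TPM per library. Of these genes Ms4a1 did not exceed 0.08 TPM in any library, while Pax5 reached 1.99 TPM, Cd79a 1.72 TPM and Cd79b 1.68 TPM.

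The promoters of 3 genes are shown because these genes passed the threshold in the authors' deposited table for B16F10. Promoter windows from RefSeq on GRCm38.p6, 250 bases before to 50 after the gene start, matched 9 of the 10 genes, in 10 windows, since Irf8 has 2. These 4 short motifs were searched on both strands: TTCNNNGAA (GAS, bound by STAT dimers), GAAANNGAA (an ISRE core, bound by interferon-activated complexes), GGAANNGAA (an ETS-IRF core) and TGANTCA (AP-1). Capitals mark GAS matches, and lower case the rest. The Irf8 window is chr8:120736108-120736407 on the plus strand, that of Wdfy4 is chr14:33185017-33185316 on the minus strand and that of Fscn1 is chr5:142960105-142960404 on the plus strand.
Irf8: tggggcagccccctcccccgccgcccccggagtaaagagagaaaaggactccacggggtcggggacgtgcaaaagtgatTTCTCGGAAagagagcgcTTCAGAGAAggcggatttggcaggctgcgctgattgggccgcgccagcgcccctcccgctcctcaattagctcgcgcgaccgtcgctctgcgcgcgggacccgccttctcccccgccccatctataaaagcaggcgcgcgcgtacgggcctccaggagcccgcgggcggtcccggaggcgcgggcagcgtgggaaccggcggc
Wdfy4: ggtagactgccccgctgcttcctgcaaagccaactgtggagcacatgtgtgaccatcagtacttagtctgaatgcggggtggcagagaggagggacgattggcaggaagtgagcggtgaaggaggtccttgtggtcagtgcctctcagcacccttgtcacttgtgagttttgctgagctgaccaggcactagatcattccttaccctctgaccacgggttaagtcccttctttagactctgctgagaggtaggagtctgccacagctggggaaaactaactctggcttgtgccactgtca
Fscn1: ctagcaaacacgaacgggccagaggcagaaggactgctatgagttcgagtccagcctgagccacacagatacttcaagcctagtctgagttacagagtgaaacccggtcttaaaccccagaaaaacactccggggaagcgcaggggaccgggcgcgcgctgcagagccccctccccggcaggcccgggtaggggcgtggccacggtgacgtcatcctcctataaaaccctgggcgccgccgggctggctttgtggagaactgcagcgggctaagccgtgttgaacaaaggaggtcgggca
The Irf8 window holds 2 GAS matches, which start 171 and 153 bases before the gene start. As background, the mouse Irf8 promoter is known to respond to interferon-gamma through a GAS element. GAS matches occur in 8.33% of all 32544 windows, the ISRE core in 8.53%, the ETS-IRF core in 8.22% and AP-1 in 7.79%; the ISRE and ETS-IRF cores end alike and can overlap. The second Irf8 window and those of Wdfy4 and Fscn1 hold none of the 4 motifs. Of the other members, Batf3 has 1 GAS match, Clec9a 1 ISRE core match, Zbtb46 1 AP-1 match and Xcr1, Flt3 and Ccl22 none. These are matches of letters and not measured sites.

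The members spanned a wide range of levels. Irf8 and Fscn1 were abundant in every library, with 9.06 TPM as the lowest Irf8 value and 22.6 TPM as the lowest Fscn1 value. Batf3, Zbtb46, Wdfy4, Ccr7 and Ccl22 lay mostly between 1 and 10 TPM. The other 3 members, all receptors, were scarce: Xcr1 did not exceed 0.61 TPM, Flt3 did not exceed 1.01 TPM and Clec9a did not exceed 2.01 TPM. None of the 3 was at 0 in any library. The abundant members, Irf8 and Fscn1, are expressed by other cells as well, and so is Ccr7, which was not abundant.

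**Figure D1:**
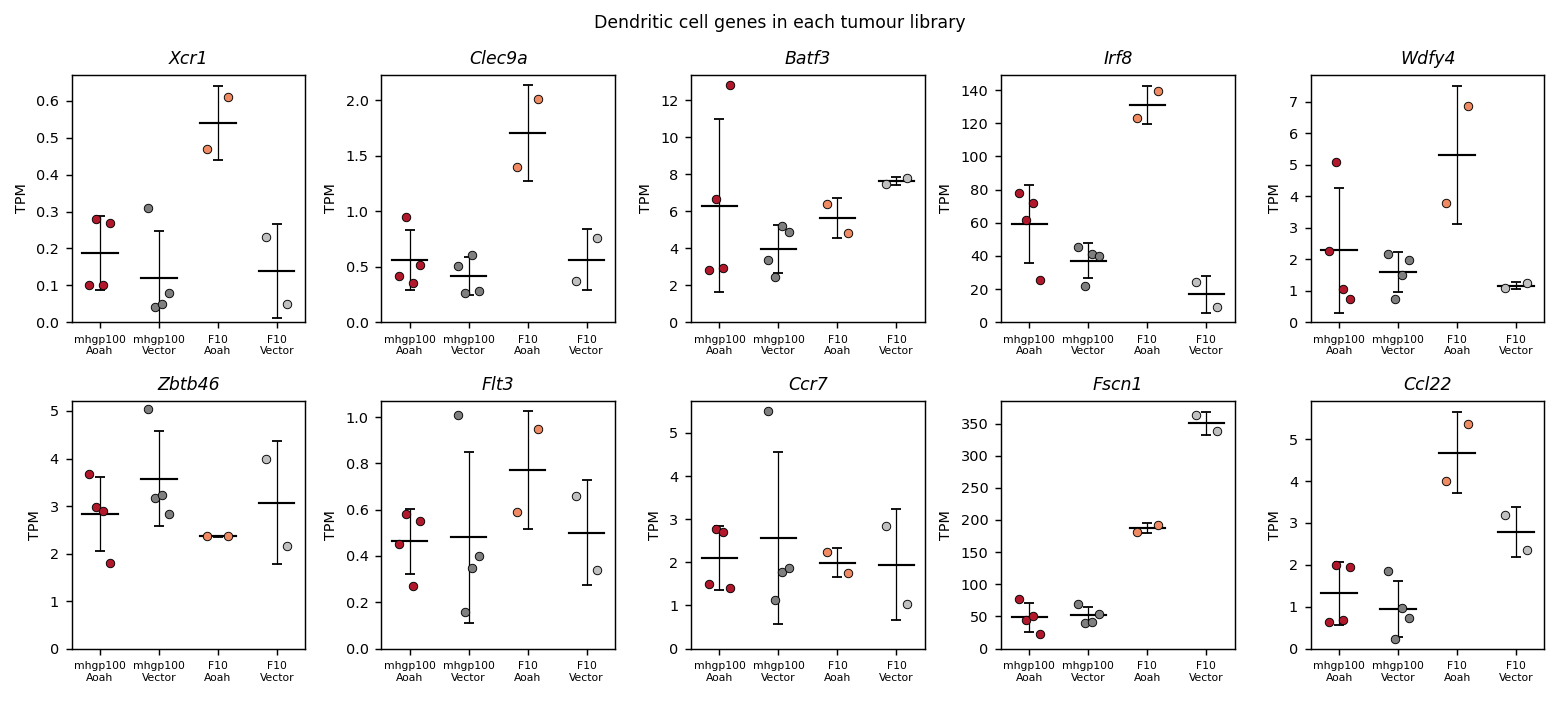
TPM of the 10 genes (linear axes from 0) in each library, with B16mhgp100 Aoah, B16mhgp100 Vector, B16F10 Aoah and B16F10 Vector from left to right. Points are libraries, horizontal bars are means and error bars are SD (n = 4, 4, 2 and 2); Irf8 in B16F10 Aoah, at 123.07 and 139.25 TPM, lies above all other groups, and Fscn1 is highest in B16F10 Vector.

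The first question is how the genes differ with Aoah in B16F10 tumours under both antibodies. Irf8 stood out by size: it had 123.07 and 139.25 TPM in the Aoah tumours, against 24.51 and 9.06 TPM in the Vector tumours. Wdfy4 had 3.77 and 6.86 TPM in the Aoah tumours, against 1.08 and 1.24 TPM in the Vector tumours. For both genes the Aoah libraries lay above the Vector libraries with no overlap.

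The log2 difference of Irf8, Aoah minus Vector on the log2(TPM + 1) scale, was 3.04 (SE 0.44, 95% confidence interval 1.93 to 4.16). With limma and Benjamini-Hochberg adjustment over 14533 genes its adjusted p was 0.0667, which missed the threshold of 0.05. Irf8 passed with median-of-ratios scaling (limma adjusted p = 0.0459), with array weights (0.0266) and with a replicate block, which the labels do not name. It missed with a pseudocount of 0.1 TPM (0.0898) and with no filter on low values (0.245). Fits without a single library leave 1 library in a group, so only their differences are given, from 2.37 to 3.71. Wdfy4 differed by 1.5 (SE 0.33, limma adjusted p = 0.123) and also missed. With 2 libraries on each side no exact permutation test could reach the threshold, so none is given. In the authors' deposited table, from a count model, Irf8 rose by a log2 fold change of 3.00 (SE 0.35, DESeq2 adjusted p = 2.41e-15) at a mean normalised count of 1942. In the same deposited table of the authors Wdfy4 rose by 2.15 (SE 0.38, adjusted p = 2.02e-06).

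The other cDC1 genes were low or lay the other way. Xcr1 had 0.47 and 0.61 TPM in B16F10 Aoah tumours, against 0.23 and 0.05 TPM in B16F10 Vector tumours. Clec9a had 1.40 and 2.01 TPM in the Aoah tumours, against 0.37 and 0.76 TPM in the Vector tumours. Neither receptor overlapped between the groups, and neither passed. Xcr1 was below the filter and differed by 0.44 in the fit with no filter (limma adjusted p = 0.351). Clec9a passed the filter only through its Aoah libraries, so its sign in the main fit was set by the filter. In the fit with no filter the Clec9a difference was 0.79 (limma adjusted p = 0.374). In the authors' deposited table these receptors had mean normalised counts of 14.6 and 20.8, with adjusted p of 0.317 for Xcr1 and 0.363 for Clec9a.

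Batf3, the partner factor of IRF8 in this subset, was lower in Aoah libraries. It had 6.38 and 4.85 TPM in B16F10 Aoah tumours against 7.48 and 7.81 TPM in B16F10 Vector tumours, again without overlap. The difference of -0.40 (SE 0.27, limma adjusted p = 0.485) did not pass, and the authors' deposited table gives -0.46 with an adjusted p of 0.783.

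Neither pan-dendritic gene separated the B16F10 groups. Zbtb46 had 2.37 and 2.36 TPM in Aoah tumours, against 3.98 and 2.15 TPM in Vector tumours. Flt3 had 0.59 and 0.95 TPM in Aoah tumours, against 0.66 and 0.34 TPM in Vector tumours. Their values overlapped, and the 95% confidence interval of the Zbtb46 difference ran from -1.04 to 0.57. For Flt3, in the fit with no filter, the interval ran from -0.34 to 0.82. The sign of the Zbtb46 difference, -0.24, turned to 0.10 without B16F10 Vector 1.

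The 3 genes of mature migratory cells did not share a direction in B16F10. Fscn1 had 181.89 and 192.59 TPM in B16F10 Aoah tumours, against 362.87 and 337.76 TPM in B16F10 Vector tumours. Ccl22 had 3.99 and 5.36 TPM in Aoah tumours, against 3.20 and 2.35 TPM in Vector tumours. Ccr7 had 2.24 and 1.75 TPM in Aoah tumours, against 2.85 and 1.03 TPM in Vector tumours. The Fscn1 libraries were lower in Aoah and the Ccl22 libraries higher, each without overlap, while the Ccr7 groups overlapped.

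Fscn1 differed by -0.90 (SE 0.14, 95% confidence interval -1.26 to -0.54, limma adjusted p = 0.075). In the authors' deposited table Fscn1 fell by 0.92 on the log2 scale (SE 0.20, adjusted p = 0.000205) at a mean normalised count of 4317. The summed melanocyte markers stood at 23656 to 25111 TPM in Aoah tumours, against 14639 to 18184 TPM in Vector tumours. Their part in the Fscn1 difference was not tested. Among them Pmel had 15880.78 and 14592.1 TPM in Aoah tumours, against 7197.31 and 8252.31 TPM in Vector tumours. Of the 5 genes, 4 lay above 0, with a list median of 0.39, and Mlana lay below, at -0.27. Ccl22 differed by 0.59 (SE 0.29, limma adjusted p = 0.355) and Ccr7 by 0.09 (SE 0.38, limma adjusted p = 0.921). The Ccr7 sign turned to -0.37 without B16F10 Vector 2 and to -0.02 without B16F10 Aoah 1.

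These counts stand against a broad background. In limma 0 of the 8 members that passed the filter were called, where 0.344% of all genes were (42 higher and 8 lower of 14533). Of the 10 members, 3 passed in the authors' deposited table, where 8.53% of 14328 genes with an adjusted p did. Aoah libraries lay above Vector libraries without overlap for 5 of 10 members, and below for 2 of 10. Of the 8 members kept, 4 lay above, against 28.0% of all genes kept, and 2 below, against 22.6%; the 4 include Clec9a, kept only through its Aoah libraries. With 2 libraries a group, absence of overlap is thus common over the whole transcriptome.

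**Figure D2:**
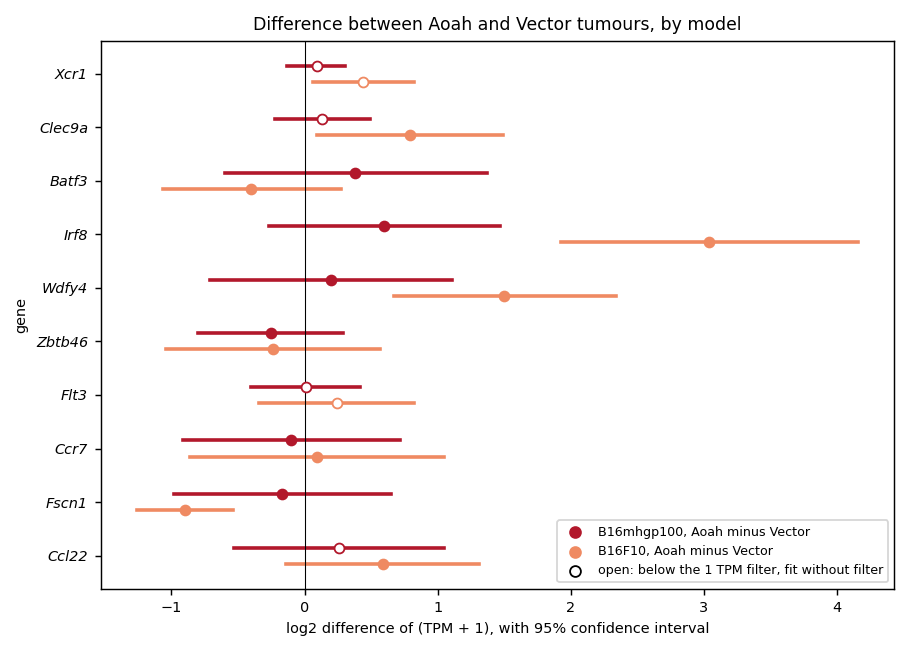
Log2 difference of TPM + 1 between Aoah and Vector tumours for each gene, with its 95% confidence interval from limma, in B16mhgp100 and B16F10; open points are genes below the filter of 1 TPM, from the fit with no filter. Intervals are per gene and unadjusted. In B16F10 those of Irf8, 1.93 to 4.16, Wdfy4 and Xcr1 lie above 0 and that of Fscn1, -1.26 to -0.54, below. That of Clec9a also lies above 0, but the filter kept this gene only through its Aoah libraries, which set its sign. Every B16mhgp100 interval spans 0.

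The second question is the same contrast in B16mhgp100 tumours under anti-PD1 alone. Irf8 had 78.27, 61.87, 71.86 and 25.41 TPM in the Aoah tumours, against 45.37, 21.62, 41.34 and 39.87 TPM in the Vector tumours. Aoah 1, 2 and 3 lay above every Vector library, and the library labelled Aoah 4 lay inside their range. The difference was 0.60 (SE 0.39, 95% confidence interval -0.27 to 1.47, limma adjusted p = 0.694), and 0.96 without Aoah 4 (adjusted p = 0.523). The authors' deposited table gives 0.80 with an adjusted p of 0.581.

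The remaining cDC1 genes overlapped between the B16mhgp100 groups. Wdfy4 had 2.26, 5.08, 1.04 and 0.75 TPM in Aoah tumours, against 2.15, 0.74, 1.49 and 1.98 TPM in Vector tumours. Batf3 had 2.80, 6.66, 2.95 and 12.83 TPM in Aoah tumours, against 3.37, 2.44, 5.20 and 4.87 TPM in Vector tumours. The highest Batf3 value came from the library labelled Aoah 4, and the difference of 0.38 (SE 0.43) was 0.01 without it. The highest Wdfy4 value came from Aoah 2, and its difference of 0.20 (SE 0.40) was -0.16 without that library and 0.44 without Aoah 4. The scarce receptors Xcr1 and Clec9a averaged 0.188 ± 0.101 and 0.560 ± 0.269 TPM in Aoah tumours, against 0.12 ± 0.128 and 0.415 ± 0.173 TPM in Vector tumours (each with its SD, n = 4).

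Pan-dendritic genes gave no separation here either. Zbtb46 averaged 2.84 ± 0.776 TPM in B16mhgp100 Aoah tumours, against 3.57 ± 1.00 TPM in B16mhgp100 Vector tumours (each with its SD, n = 4). Flt3 averaged 0.463 ± 0.140 TPM in Aoah tumours, against 0.480 ± 0.368 TPM in Vector tumours. The difference of Zbtb46 was -0.25 (SE 0.24), and -0.11 without Aoah 4.

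Among the mature genes of this model, Ccr7 had 1.5, 2.78, 2.71 and 1.40 TPM in Aoah tumours, against 5.50, 1.12, 1.78 and 1.86 TPM in Vector tumours. Fscn1 had 77.12, 43.96, 51.36 and 22.60 TPM in Aoah tumours, against 69.37, 40.35, 41.94 and 54.06 TPM in Vector tumours. Ccl22 had 0.64, 2.00, 0.68 and 1.95 TPM in Aoah tumours, against 1.84, 0.22, 0.96 and 0.74 TPM in Vector tumours. All 3 overlapped between the groups. The Ccr7 difference of -0.10 (SE 0.36) was 0.24 without Vector 1, its highest library, and 0.02 without Aoah 4. That of Fscn1, -0.17 (SE 0.36), was 0.15 without Aoah 4.

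No member was called in B16mhgp100, and limma called 0.0% of 14228 genes at adjusted p, with 350 genes below 0.05 before adjustment. The authors' deposited table called 0.0146% of 20534 genes and no member. Separation without overlap was reached by 0 of 10 members in either direction, against 0.731% of all kept genes with Aoah above and 5.15% with Aoah below. The median log2 difference of all kept genes in this model was -0.20, and 0.00 with median-of-ratios scaling. With that scaling the Irf8 difference was 0.83, and those of Ccr7 and Fscn1 turned to 0.06 and 0.07.

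The third question is whether the Aoah difference itself differed between the models, taken as the B16F10 difference minus the B16mhgp100 difference in a fit of all 12 libraries. For Irf8 it was 2.44 (SE 0.69, 95% confidence interval 0.92 to 3.97, limma adjusted p = 0.595), and 2.08 without B16mhgp100 Aoah 4 (adjusted p = 0.147). For Wdfy4 it was 1.30 (SE 0.66) and for Clec9a 0.66 (SE 0.34), both with an adjusted p of 0.849. Batf3, at -0.78, and Fscn1, at -0.73, had the opposite sign at the same adjusted p. Without B16mhgp100 Aoah 4, Batf3 stood at -0.40, Fscn1 at -1.05, Wdfy4 at 1.06 and Clec9a at 0.65. Clec9a reached 1 TPM only in the B16F10 Aoah libraries, so it passed the filter of this fit through them alone. No member passed, where 0.0302% of 16556 genes did. The median over all genes was 0.16, and -0.02 with median-of-ratios scaling, with which Irf8 stood at 2.22.

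Across all 12 libraries, ordered by group mean, Irf8 ran from B16F10 Aoah (131.0 ± 11.4 TPM, SD, n = 2) to B16mhgp100 Aoah (59.4 ± 23.6, n = 4), B16mhgp100 Vector (37.0 ± 10.5, n = 4) and B16F10 Vector (16.8 ± 10.9, n = 2). The first place did not overlap with the second, and the lower neighbours overlapped. Fscn1 ran from B16F10 Vector (350.0 ± 17.8 TPM) and B16F10 Aoah (187.0 ± 7.57 TPM) to B16mhgp100 Vector (51.4 ± 13.4 TPM) and B16mhgp100 Aoah (48.8 ± 22.5 TPM), and only the last 2 overlapped. Ccl22 had the order B16F10 Aoah, B16F10 Vector, B16mhgp100 Aoah and B16mhgp100 Vector, and again only the last 2 overlapped. All B16F10 libraries lay above all B16mhgp100 libraries for 2 of 10 members, Fscn1 and Ccl22, against 4.57% of genes kept, and the models cannot be told apart from their antibodies and first day. Xcr1 and Clec9a were highest in B16F10 Aoah without overlap with the next group, at low levels (0.47 and 0.61 TPM for Xcr1, 1.40 and 2.01 TPM for Clec9a). For such places in the order, also those of Irf8, Fscn1 and Ccl22, the share over all genes was not counted. Within B16F10 alone, 28.0% of kept genes lay higher in Aoah libraries without overlap. For Batf3, Wdfy4, Zbtb46, Flt3 and Ccr7 each pair of neighbours in the order overlapped.

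Related genes were described from lists whose members are not those 10. Of 10 further cDC1 genes, 8 passed the filter in B16F10, 6 were above 0 and none was called, with a median log2 difference of 0.42 beside 0.02 over all genes. Itgae, the CD103 integrin chain, had 1.40 and 2.14 TPM in Aoah tumours, against 0.54 and 0.44 TPM in Vector tumours. Tlr3, a sensor of double-stranded RNA, had 17.75 and 19.26 TPM in Aoah tumours, against 14.03 and 10.68 TPM in Vector tumours. Itgae is 1 of the 8 kept genes and passed the filter only through its Aoah libraries. Its place among the 6 above 0 was thus set by the filter, the median includes it, and no test result is given for it. The difference of Tlr3, 0.56, missed the threshold (limma adjusted p = 0.307), as did Naaa at 0.77 and Cadm1 at 0.45.

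Of 10 further pan-dendritic and development genes, 9 passed the filter in B16F10, of which 6 lay above 0 and 3 below, and 2 rose, where 0.344% of all genes were called in either direction. These were the MHC class II chains H2-Ab1 (2.53, SE 0.17, limma adjusted p = 0.0259) and H2-Aa (2.58, SE 0.26, adjusted p = 0.0433), which macrophages and B cells express too. H2-Ab1 had 717.56 and 762.66 TPM in B16F10 Aoah tumours against 144.14 and 112.87 TPM in B16F10 Vector tumours. With no filter on low values both calls ended, at an adjusted p of 0.237, and with a pseudocount of 0.1 TPM that of H2-Aa did (0.0657). Kit, a receptor that melanocytes express as well, had a difference of -1.42 (adjusted p = 0.119). Itgax, the CD11c integrin, had 10.87 to 13.91 TPM in Aoah tumours, against 4.20 to 8.02 TPM in Vector tumours.

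Of 24 further genes of mature dendritic cells, 21 passed the filter in B16F10, 16 lay above 0 and none was called, with a median of 0.44. Ebi3 is among the 16 and passed the filter only through its Aoah libraries, so its sign was set by the filter. Cd274, which encodes the PD-1 ligand, had 34.05 and 40.65 TPM in Aoah tumours, against 12 and 9.29 TPM in Vector tumours (difference 1.72, limma adjusted p = 0.0616). Cd40, the receptor for T cell help, differed by 1.12 (adjusted p = 0.138). Ccl17, the other CCR4 chemokine, lay the other way from Ccl22 in B16F10, with 0.59 and 2.80 TPM in Aoah tumours, against 5.08 and 4.16 TPM in Vector tumours. In B16mhgp100 it did not exceed 0.85 TPM, and the difference between the models, -1.30, had a limma adjusted p of 0.849.

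Among 14 ligands and partner genes, 7 passed the filter in B16F10 and 1 rose, where 0.344% of all genes were called in either direction. Ccl5, a chemokine of T and NK cells, had 69.33 and 72.75 TPM in Aoah tumours, against 9.92 and 6.89 TPM in Vector tumours (2.96, SE 0.24, limma adjusted p = 0.0286, and 0.237 with no filter). Xcl1, the ligand of XCR1, had 2.87 and 2.42 TPM in Aoah tumours, against 1.54 and 0.67 TPM in Vector tumours (0.82, adjusted p = 0.254). The growth factor Flt3l had 4.64 ± 1.53 TPM in B16mhgp100 Aoah tumours, against 3.46 ± 1.31 TPM in B16mhgp100 Vector tumours (with SD, n = 4 each; difference 0.33, limma adjusted p = 0.694, and 0.22 without Aoah 4). In B16mhgp100 none of the genes in these 4 lists was called, and their medians lay between 0.07 and 0.23 beside -0.20 over all genes. Without Aoah 4 these medians lay between -0.03 and 0.30, beside -0.03 over all genes.

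Markers of other cell types differed beside the members in B16F10, and their part in the members' differences was not tested. The T cell list, 7 genes, summed to 47.3 to 55.8 TPM in Aoah tumours, against 14.0 to 20.7 TPM in Vector tumours. Its members Cd3d, Cd4 and Cd8a passed the filter only through the Aoah libraries, Cd8a with 12.52 and 13.96 TPM in Aoah tumours, against 0.64 and 0.36 TPM in Vector tumours, so no call of theirs is counted. The interferon-gamma response list had 10 of 10 genes above 0 with a median of 2.16 and no call, and it summed to 1317 and 1447 TPM in Aoah tumours, against 391 and 168 TPM in Vector tumours. The macrophage and monocyte list, 13 genes, summed to 952 to 1045 TPM in Aoah tumours, against 519 to 563 TPM in Vector tumours, with 11 of 13 above 0 and none called. The cDC2 list lay the other way, with 7 of 9 kept genes below 0, among them Mgl2 with 4.64 and 8.62 TPM in Aoah tumours, against 33.21 and 19.47 TPM in Vector tumours (-1.85, limma adjusted p = 0.118). Of the plasmacytoid list 1 of 6 kept genes rose, where 0.344% of all genes were called in either direction. It was the interferon-induced Bst2 (1.44, limma adjusted p = 0.0384), which many cells express. The call of Bst2 ended with median-of-ratios scaling (0.0657) and with no filter (0.237). Endothelial genes, 5 in the list, all lay below 0. Tek among them passed the filter only through its Vector libraries, so its sign was set by the filter. The endothelial list summed to 20.2 to 24.8 TPM in Aoah tumours, against 51.5 to 72.9 TPM in Vector tumours. The keratinocyte genes Krt10, with 9.49 and 13.37 TPM in Aoah tumours, against 0.28 and 0.58 TPM in Vector tumours, and Lor, with 6.27 and 5.12 TPM, against 0.00 and 0.27 TPM, also passed the filter only through the Aoah libraries and are not counted as calls. Fibroblast genes lay below 0 for 5 of 6 and summed to 162 to 227 TPM in Aoah tumours, against 358 to 447 TPM in Vector tumours. Skeletal muscle genes lay below 0 for 4 of 4 kept and summed to 17.1 and 16.1 TPM in Aoah tumours, against 18.2 and 167 TPM in Vector tumours, the last in Vector 2.

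**Figure D3:**
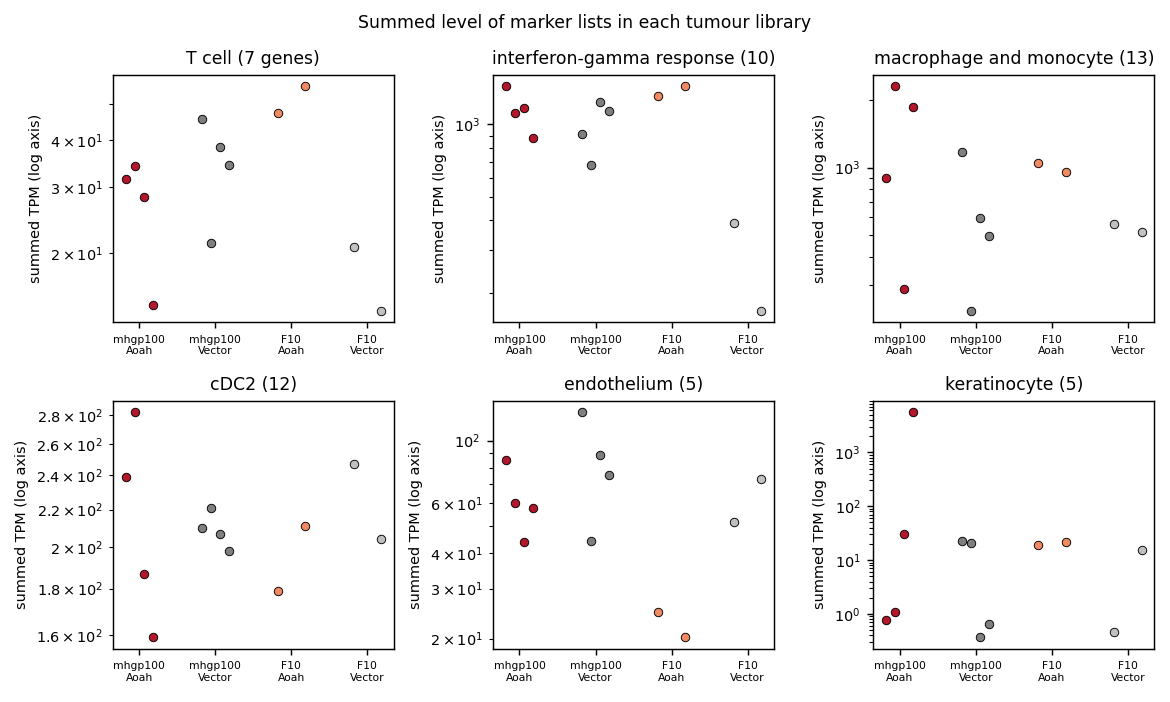
Summed TPM (log axis) of 6 marker lists in each library, with B16mhgp100 Aoah, B16mhgp100 Vector, B16F10 Aoah and B16F10 Vector from left to right and points as libraries. The T cell and interferon-gamma sums of B16F10 Vector, 14.0 to 20.7 and 168 to 391 TPM, lie below those of B16F10 Aoah, and the highest keratinocyte sum, 5566 TPM, is the library labelled B16mhgp100 Aoah 4.

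Within groups, Xcr1, Flt3 and Ccl22 had the highest likeness, and were picked out after the values were seen. Deviations from group means on the log2(TPM + 1) scale over the 12 libraries gave Pearson r of 0.92 (Spearman rho 0.84) for Xcr1 with Flt3, 0.89 (rho 0.84) for Xcr1 with Ccl22 and 0.85 (rho 0.82) for Flt3 with Ccl22. Without the 2 libraries whose level of the first-named gene lay farthest from its median, these were 0.91, 0.89 and 0.81. For both Xcr1 pairs this left out B16F10 Aoah 1 and 2 and kept B16mhgp100 Vector 1. That library had the highest Xcr1, Flt3 and Ccl22 values of its group, and its part in these r was not tested. Clec9a, the other scarce receptor, gave 0.33 (rho 0.12) with Xcr1 and 0.36 (rho 0.28) with Flt3. Irf8 followed other members, with r of 0.81 (rho 0.82) for Zbtb46 and 0.77 (rho 0.78) for Fscn1, and 0.15 (rho 0.15) for Xcr1. Without B16mhgp100 Aoah 4 the r of Irf8 was 0.70 with Zbtb46, 0.49 with Fscn1 and 0.52 with Xcr1, so these values rest in part on that library. All 45 pairs were computed from the same libraries, which share scaling and cell content, and the values are descriptions.

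**Figure D4:**
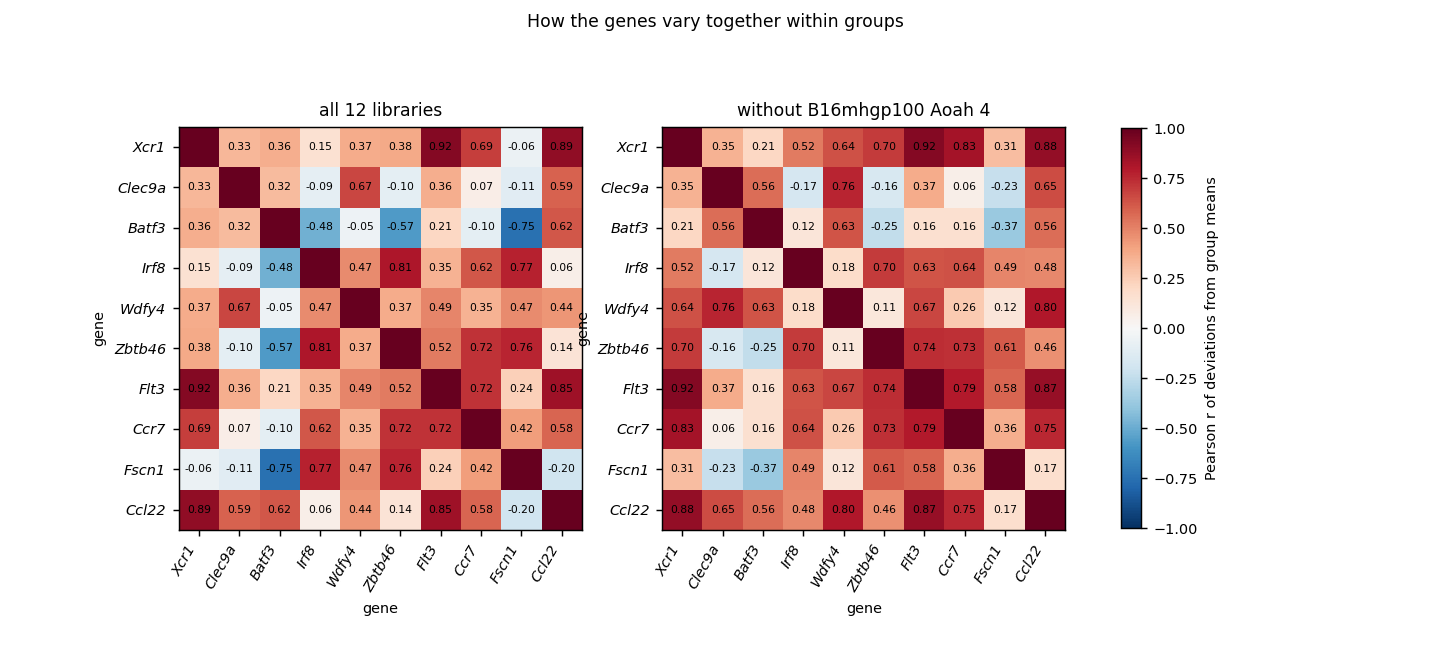
Pearson r between the deviations of the 10 genes from their group means, over all 12 libraries (left) and without B16mhgp100 Aoah 4 (right), with colour from -1 to 1. Xcr1, Flt3 and Ccl22 form high values in both panels (0.85 to 0.92 on the left), while Batf3 with Fscn1 stands at -0.75 on the left and at -0.37 on the right.

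The genes most like each member by Pearson r of log2(TPM + 1) over the 12 libraries, which fall into groups, were as follows. Irf8 was closest to Rnf114 (0.94), Tap2 (0.94), a subunit of the peptide transporter for MHC class I, and Cd27 (0.94), a receptor of T cells. Xcr1 was closest to Fcho1 (0.95), Ltb (0.95), which encodes lymphotoxin beta, and Cd2 (0.92), an adhesion molecule of T and NK cells. Wdfy4 was closest to Slc11a1 (0.94), a metal transporter of phagocytes, Adap1 (0.94) and Laptm5 (0.92), a lysosomal protein of leukocytes. Fscn1 was closest to Ppp1r16b (0.98), Bahcc1 (0.96) and Slc17a9 (0.96). Flt3 was closest to Acp5 (0.92), Clec9a to Cish (0.89), Batf3 to Dmac1 (0.92), Zbtb46 to Phldb2 (0.93), Ccr7 to Arhgap25 (0.86) and Ccl22 to 5730409E04Rik (0.97).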

How the data were processed

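Tumour polyA RNA was sequenced in 12 libraries, grouped by their titles. The authors deposited expression as log2 values, which gave TPM after removal of a pseudocount of 1, and separate tables per model with a mean normalised count (signal), a log2 fold change with its error, a test score and p-values. Per the submitters' processing notes, the authors used RSEM and DESeq2 on mm39 (versions not given in the sources used here). Depth per library is unknown from TPM, which allows no counting interval. RSEM shares reads between similar genes, and strand is not stated.

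Differences were tested on log2(TPM + 1), which understates changes of low genes, with limma 3.58.1 in R 4.3.3 (trend, 2-sided, Benjamini-Hochberg over all genes, threshold 0.05), after keeping genes with at least 1 TPM in as many libraries as the smaller group holds. Of the members, 6 passed this filter in B16mhgp100, 8 in B16F10 and 8 in the fit of all 12 libraries; the others come from the fit with no filter. The fits were tested on simulated data. Alternatives were another pseudocount (0.1 TPM), no filter, median-of-ratios scaling, array weights, a replicate block and leaving out each library. Members and lists (22 lists, 167 genes, 2 of them without a row) were chosen with earlier results of these data known. All members are named in each comparison, and of other lists at most 4 genes with the smallest p and all past the threshold. Itgax, Ms4a1, Pax5, Cd79a, Cd79b, Cd4, Ebi3, Tek and Ccl17 in B16F10 and the keratin of the library that stood apart were chosen after their values were seen. The 3 genes most like a member have the highest Pearson r. Motifs were matched on both strands. Immune receptor repertoire measures were not used here.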

Additional observations from a re-analysis of the deposited data

Results flagged for a closer look

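Xcr1 and Ccr7 each had a value far from the other 3 libraries of the group, both from the tumour B16mhgp100 Vector 1. Xcr1 stood at 0.31 TPM there, and its gap to the nearest other library made up 0.852 of the group's range, above Dixon's critical value for 4 samples. Ccr7 stood at 5.5 TPM there, with a gap of 0.831 of the range. Among 20 groups tested chance flags about 1 in 20, and the same library had the highest Flt3 value of its group, 1.01 TPM, and the highest Ccl22 value, 1.84 TPM.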

How the results depend on the processing

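The number of genes past the threshold depended on the settings. In B16mhgp100 it was 0, with 1 at a pseudocount of 0.1 TPM, 5 with array weights and 0 to 1 without single libraries. In B16F10 it was 50, with 32 at a pseudocount of 0.1 TPM, 0 with no filter on low values (3335 below 0.05 before adjustment), 127 with median-of-ratios scaling, 115 with array weights and 234 to 3242 without single libraries, where the lone library left in a group is assumed to vary like the other group. For the difference between the models it was 5, with 46 with no filter, 10 with median-of-ratios scaling, 31 with array weights and 1 to 45 without single libraries, 45 being without B16mhgp100 Aoah 4. The cause was not tested.

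With the replicate number as a block, the counts were 0 in B16mhgp100, 765 in B16F10 and 2 for the difference. The labels number tumours within a group and name no pairing. Deviations of same-numbered libraries correlated at -0.257, -0.255, 0.047 and -0.062 in B16mhgp100. In B16F10 both replicate numbers gave -0.098, values that 2 libraries a group force to be equal. Differently numbered libraries were not compared, so these values cannot settle whether samples were paired. Under the block Irf8, Wdfy4 and Fscn1 passed the threshold in B16F10. With 2 libraries a group, the block leaves little spread within each gene to estimate. These passes and the count of 765 thus rest mostly on the spread pooled over genes, and the p-values are not given.

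Some member values changed sign. In B16mhgp100 Batf3 was -0.30 with array weights, Zbtb46 was 0.03 with array weights, Ccr7 was 0.06 with median-of-ratios scaling, and Fscn1 was 0.07 with median-of-ratios scaling and 0.32 with array weights. Without single libraries Wdfy4 ran from -0.16 to 0.44, Ccr7 from -0.30 to 0.24 and Fscn1 from -0.42 to 0.15 in B16mhgp100. In B16F10 Zbtb46 ran from -0.57 to 0.10 and Ccr7 from -0.37 to 0.56. For the difference between the models Zbtb46 was -0.14 with median-of-ratios scaling and -0.26 with array weights and ran from -0.31 to 0.35 without single libraries, and Ccr7 ran from -0.27 to 0.65. Depth is unknown, and Xcr1, Flt3 and Clec9a lie near or below 1 TPM, where these data resolve differences least. Over the named genes that were refitted under the alternatives, 626 values kept their direction and side of the threshold. Another 11 ended a call and 19 changed sign. Values that passed the threshold where the reported value did not are left uncounted, since they include B16F10 fits with 1 library left in a group. They also include the replicate block and genes kept only through their Aoah libraries.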

Other observations

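Levels per unit of Ptprc, the pan-leukocyte gene, were looked at after the values were seen, and no test was made. Irf8 stood at 14 and 13 times the Ptprc TPM in B16F10 Aoah tumours and at 3.57 and 3.04 times in B16F10 Vector tumours. In B16mhgp100 the ratios were 6.90, 2.83, 8.42 and 2.99 in Aoah tumours and 2.88, 5.89, 4.41 and 4.36 in Vector tumours. The ratio of Irf8 thus separated the B16F10 groups and not the B16mhgp100 groups. Wdfy4 per Ptprc stood at 0.430 and 0.640 in B16F10 Aoah tumours and at 0.157 and 0.416 in B16F10 Vector tumours, without overlap. Clec9a per Ptprc overlapped, at 0.160 and 0.187 in Aoah tumours and 0.0539 and 0.255 in Vector tumours. Xcr1 per Ptprc was higher without overlap, at 0.0536 and 0.0569 in Aoah tumours and 0.0335 and 0.0168 in Vector tumours. Ccr7 and Flt3 per Ptprc were lower without overlap, Ccr7 at 0.255 and 0.163 in Aoah tumours and 0.415 and 0.346 in Vector tumours, and Flt3 at 0.0673 and 0.0886 in Aoah tumours and 0.0962 and 0.114 in Vector tumours. Ccl22 per Ptprc overlapped, at 0.455 and 0.5 in Aoah tumours and 0.466 and 0.789 in Vector tumours. Over all kept genes other than Ptprc, 2.9% were higher per Ptprc in B16F10 Aoah tumours without overlap and 73.4% were lower. Of the 10 members 3 were higher, Xcr1, Irf8 and Wdfy4, and 5 lower, Batf3, Zbtb46, Flt3, Ccr7 and Fscn1. Xcr1 and Flt3 did not pass the filter, so the members are not a like set to the kept genes.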
